A study of Homo sapiens with 6 samples.

Results

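The genes described here are 50 genes of DNA double-strand break repair and of the checkpoint that it triggers, out of 22354 loci in the count table. They were chosen by name, as the rows of the table whose symbol is on a list of known break repair and checkpoint genes, and all 50 were found and passed the filter on low counts. By role they fall into 14 genes of damage signalling, 17 of homologous recombination, 13 of end joining and 6 of the Fanconi pathway. RNA-seq was carried out on 6 libraries of HTori-3.1, an immortalised line of normal human thyroid cells, to ask how loss of the circadian transcription factor BMAL1 alters gene expression in cells driven toward senescence. The 3 control libraries came from wild type cells. The 3 libraries labelled BMAL1 knockout came from cells that received Cas9 and a guide RNA against BMAL1 by virus. These cells were selected with puromycin and grown from single clones. With wild type cells as control, effects of the virus, Cas9 or selection and properties of a clone cannot be told apart from an effect of the edit. All 6 libraries were from cells exposed to etoposide at 2 µM, for 12 h by the sample labels and 24 h by the treatment protocol. No untreated library was analysed here, and every comparison below is therefore between etoposide-treated cells. The labels do not say that replicates were separate cultures, and the p-values then measure only the spread between these samples.

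Etoposide traps topoisomerase II on cut DNA and leaves double-strand breaks. Breaks are sensed by the MRE11-RAD50-NBN complex and by the Ku heterodimer, and the kinases ATM, ATR and DNA-PKcs pass the signal to the checkpoint kinases and to chromatin around the break. Ends are then either joined directly or resected and repaired from the sister chromatid by homologous recombination, while the Fanconi proteins handle crosslinks and stalled forks; much of this response works by phosphorylation and ubiquitylation of proteins already present, which transcript counts do not measure.

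Total counts were 26893063, 27029060 and 28513703 in control replicates 1 to 3 and 43148059, 29860233 and 43563391 in knockout replicates 1 to 3. The targeted gene went against the label. BMAL1 stood at 11.3, 12.2 and 14.6 CPM (library-scaled counts per 1e+06 counts) in the control libraries and at 17.9, 19.8 and 19.4 CPM in the libraries labelled BMAL1 knockout, a log2 fold change of 0.58 ± 0.11 (SE) with an adjusted p of 0.0204. That call was lost without control replicate 1 (adjusted p = 0.0896), control replicate 2 (0.113), knockout replicate 2 (0.0749) or knockout replicate 3 (0.0598), although the log2 fold change stayed at 0.50 or more. Transcript counts over the whole gene do not show whether the edited sequence encodes protein. The growth protocol describes a western blot check of the clones, which was not analysed here, so the labels are used as given and every direction below is that of the libraries labelled BMAL1 knockout over the control libraries.

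The thyroid label was only partly matched by marker genes. Of 8 thyrocyte markers, 2 were expressed, the transcription factors PAX8 (121.6 CPM on average, the most abundant) and FOXE1. The thyroid factor NKX2-1 had 0 counts in all 6 libraries, which allows up to 0.112 CPM in the smallest library, and thyroglobulin (TG), the TSH receptor and the iodide transporter SLC5A5 stayed under 1 CPM. Summed over the list, thyrocyte markers gave 172, 173 and 200.5 CPM in control and 129, 149 and 173 CPM in knockout libraries. The 2 thyrocyte markers tested were both lower in knockout at an unadjusted p under 0.05 (beside 7.78% of all loci), and edgeR called 0. The epithelial keratins KRT8, KRT18 and KRT7 were abundant, while EPCAM and CDH1 stayed under 1 CPM. Of 5 epithelial markers tested, 3 had a log2 fold change above 0 and edgeR called 1, KRT18, lower in knockout (log2 fold change −0.50, adjusted p = 0.00583, and 0.0524 without control replicate 2). KRT7 had a log2 fold change of 0.098 (adjusted p = 0.540) and KRT8, the most abundant, of −0.28 (adjusted p = 0.0507). Epithelial markers summed to 2990, 3044 and 2897 CPM in control and 2540, 2482 and 2563 CPM in knockout libraries, lower in every knockout library (ratio 0.849, exact 2-sided permutation p = 0.1, the smallest possible). Fibroblast markers, led by COL1A1, had a summed ratio of 1.00 with overlapping groups. Endothelial markers summed to under 3 CPM in every library, with 2.76, 2.13 and 2.54 CPM in control and 1.43, 1.64 and 2.08 CPM in knockout libraries. This sum was also lower in every knockout library (ratio 0.693, exact 2-sided permutation p = 0.1). Leukocyte markers summed to 19.3, 19.9 and 17.9 CPM in control and 14.2, 12.5 and 13.1 CPM in knockout libraries, with CD68 the most abundant of 6. Of the 3 tested, edgeR called PTPRC lower in knockout (log2 fold change −1.43, adjusted p = 0.00127), while CD14 had a log2 fold change of 0.99 (adjusted p = 0.318) and CD68 of −0.27 (adjusted p = 0.296). CD3E and MS4A1 were at 0 in every library. Whether these markers have a part in the values below was not tested.

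Knockout replicate 1 stood apart from the other knockout libraries. The chi-square of its counts per degree of freedom was 31.0 against knockout replicate 2 and 45.0 against knockout replicate 3, while knockout replicates 2 and 3 gave 7.43 and control pairs 5.41, 14.5 and 13.2. This measure was taken on raw counts and rises with depth, which was highest in knockout replicates 1 and 3, so pairs of unlike depth do not compare directly. Knockout replicate 1 had the highest value among the knockout libraries in 25 of 50 repair genes and in 36.4% of all loci tested. Among the controls, replicate 3 had the highest value in 34 of 50 repair genes, or 68%, and in 39.2% of all loci tested. Where a gene is named below for its value in knockout replicate 1, its log2 fold change is given with and without it. The first principal component, with 34.3% of the variance, still separated the 3 knockout libraries from the 3 control libraries.

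None of the 50 genes was called. The quasi-likelihood test of edgeR was run on 14860 loci and its p adjusted over them by Benjamini-Hochberg, here and for each adjusted p below. It gave 0 of 50 genes with an adjusted p under 0.05 in either direction, against 2.51% of all loci (1.08% higher and 1.43% lower). limma-voom also called 0, and DESeq2 called 1, RNF168. At an unadjusted p under 0.05 edgeR counted 3 of 50, or 6%, namely RNF168, BARD1 and MAD2L2, all higher in knockout, against 16.9% of all loci (9.08% higher and 7.78% lower). Over the 16 alternatives this count ran from 1 without control replicate 2 to 8 with the GC trend removed, with 6 without control replicate 3 and 5 without knockout replicate 1. The groups of 3 libraries did not overlap for 9 of 50, or 18%, against 23.3% of all loci. In 4 of these the knockout libraries were all higher (11.8% of all loci) and in 5 all lower (11.5%). All of these shares lay below those of the whole table. The whole-table calls, 161 higher and 212 lower, became 185 and 155 with scaling by library size alone, and ran from 46 and 67 without control replicate 2 to 293 and 340 without knockout replicate 1.

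Differences were also small in size. The median log2 fold change of the 50 genes was 0.017, beside 0.0099 for all loci tested, with 27 above 0 and 23 below. It was −0.022 without knockout replicate 1 and 0.049 without control replicate 3. Single genes ranged from −0.17 for PRKDC to 0.37 for RNF168, and in 27 of 50 the sign turned in at least 1 of the fits without a library. An absolute log2 fold change under 0.2 was found for 46 of 50, or 92%, beside 80.9% of the 9892 loci with a mean of at least 10 CPM. The 95% confidence intervals of all 50 lay within 1.5-fold either way in the main fit. The lowest bound was 0.772-fold for XRCC4 and the highest 1.498-fold for RNF168, so larger differences than these lie outside the intervals of this test. Intervals of the alternative fits are not given, and the log2 fold change of RNF168 ran from 0.30 to 0.43 over them. These genes were well counted: the lowest count of any in a library was 334, and the median coefficient of variation within a group was 6.24%.

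**Figure D1:**
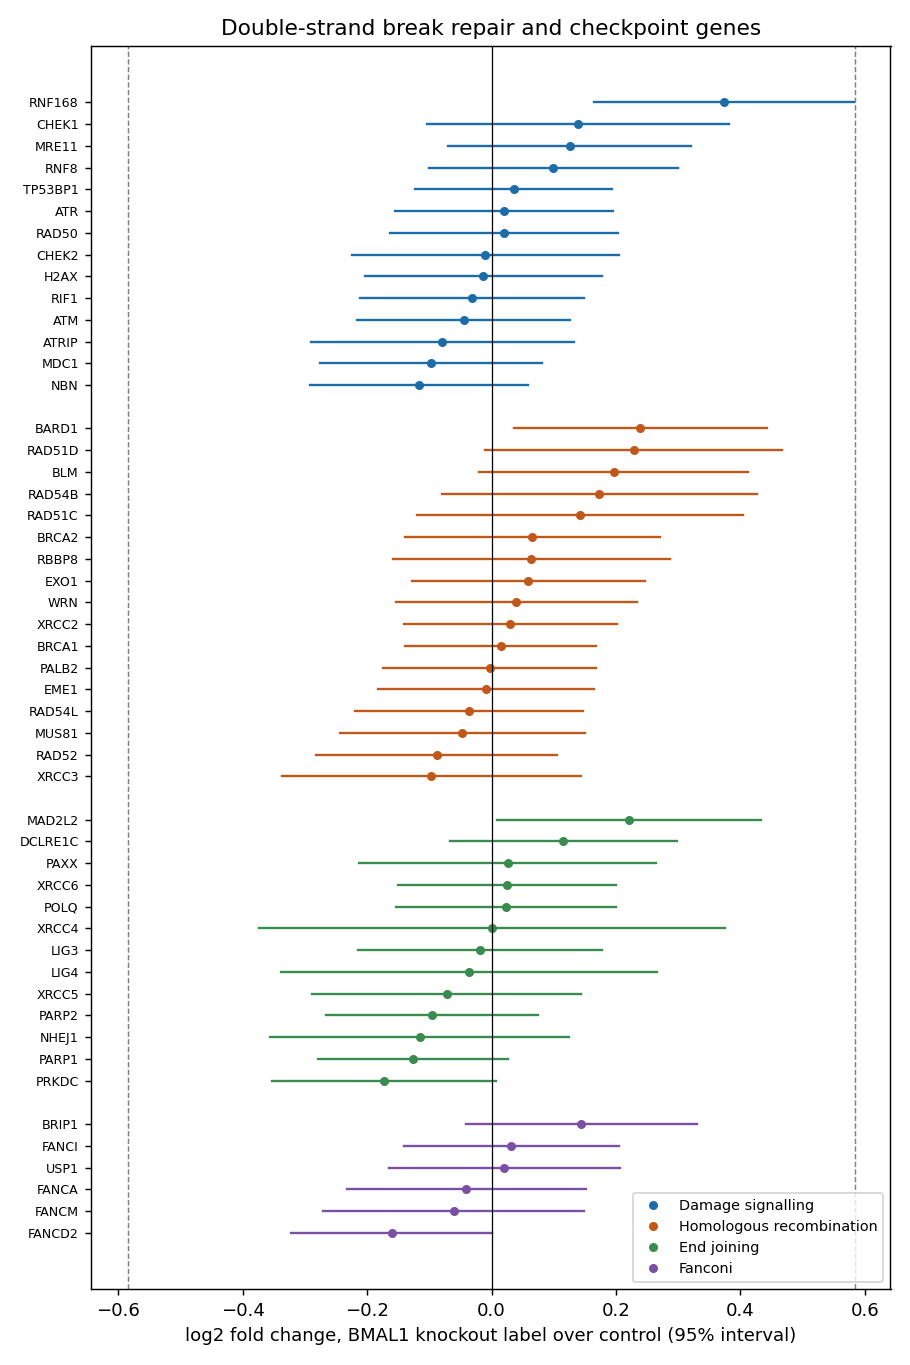
Log2 fold change of each of the 50 genes in the libraries labelled BMAL1 knockout over control, with points for the estimate, bars for the 95% confidence interval (3 libraries a group) and colours for the role. Dashed lines mark 1.5-fold either way, and every interval lies between them; the interval of 3 genes, RNF168, BARD1 and MAD2L2, does not include 0.

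In damage signalling, 0 of 14 genes were called by edgeR, 1 had an unadjusted p under 0.05, and the median log2 fold change was 0.0049. Without 1 library this median ran from −0.024 (control replicate 1) to 0.049 (control replicate 3). RNF168, the ubiquitin ligase that marks H2A-type histones around a break and so recruits TP53BP1 and BRCA1, had the largest difference of all 50 genes. Its gene lies at chr3:196468783-196503768 on hg38. RNF168 stood at 21.8, 21.1 and 22.8 CPM in control and at 26.2, 31.3 and 27.7 CPM in knockout libraries, a log2 fold change of 0.37 ± 0.10 (SE). Every knockout library lay above every control library, yet the adjusted p was 0.0650 and missed the threshold. DESeq2 gave an adjusted p of 0.0287, removal of the trend with GC content 0.0255 and the fit without knockout replicate 1 0.0256, and over all 16 alternatives the adjusted p ran from 0.0255 to 0.270. The tested neighbours of RNF168 on the chromosome, up to 20 on each side, had a median log2 fold change of 0.12. More RNF168 transcript per cell and a larger share of cells that express it cannot be told apart in these bulk libraries.

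RNF8, the ligase that acts just before RNF168 at the break, gave 20.7, 23.6 and 24.0 CPM in control and 24.8, 23.9 and 24.4 CPM in knockout libraries. These groups overlapped. The readers of the mark and its scaffold, TP53BP1 and MDC1, had log2 fold changes of 0.035 and −0.098. Without 1 library TP53BP1 ran from 0.0029 to 0.068 and MDC1 from −0.16 to −0.037, the last 2 upper values being without knockout replicate 1. TP53BP1, which shields ends from resection, had 139, 140.0 and 147 CPM in control and 139, 152 and 146 CPM in knockout libraries. H2AX, the histone whose phosphorylated form marks breaks, had 95.5, 101 and 88.4 CPM in control against 84.4, 97.7 and 99.8 CPM in knockout libraries. Knockout replicate 1 was the lowest of the 6 for H2AX, and without it the log2 fold change went from −0.014 to 0.057, and it was 0.016 with scaling by library size alone.

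The kinases at the head of the checkpoint differed little. ATM, the main kinase activated by double-strand breaks, gave 97.1, 88.3 and 103 CPM in control and 92.9, 91.6 and 94.9 CPM in knockout libraries. ATR, which responds to single-stranded DNA together with its partner ATRIP, gave 85.1, 95.9 and 99.8 CPM in control and 97.0, 91.9 and 95.8 CPM in knockout libraries. In both genes the 3 knockout values fell within the range of the controls. CHEK1, the effector kinase below ATR, had 27.5, 29.9 and 37.6 CPM in control and 36.0, 34.7 and 34.0 CPM in knockout libraries, with a log2 fold change of 0.14 (95% interval −0.10 to 0.38). Control replicate 3 was the highest of all 6 libraries for CHEK1, and control replicates 1 and 2 were the lowest. The log2 fold change was 0.28 without control replicate 3 and 0.047 without control replicate 1. CHEK2, the effector below ATM, had a log2 fold change of −0.0098 (95% interval −0.22 to 0.20) that turned to 0.019 with scaling by library size alone.

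The subunits of the break sensor were not called either. NBN, which binds ATM, had 112, 114 and 132 CPM in control and 111, 109 and 110.0 CPM in knockout libraries, so that every knockout library lay below every control library. Its log2 fold change was −0.12 (adjusted p = 0.498), and −0.037 without control replicate 3. The nuclease MRE11 had 86.3, 82.2 and 86.0 CPM in control and 104, 84.0 and 89.1 CPM in knockout libraries, the highest being knockout replicate 1. The log2 fold change of MRE11 was 0.13, and 0.028 without that library. RAD50, the ATPase of the complex, had a log2 fold change of 0.020, and the level of NBN per kilobase over that of RAD50 was 0.399, 0.414 and 0.404 in control and 0.354, 0.368 and 0.385 in knockout libraries. The same ratio of MRE11 over RAD50 overlapped, with 0.776, 0.755 and 0.667 in control and 0.844, 0.717 and 0.790 in knockout libraries. Of 11 such ratios between partner genes, 3 had groups that did not overlap, namely NBN over RAD50, BARD1 over BRCA1 and FANCD2 over FANCI. Each holds a gene, NBN, BARD1 or FANCD2, that is itself among the 9 without overlap. As single genes, 23.3% of all loci did not overlap, and the share over other gene pairs was not computed. No test was made of these ratios.

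Homologous recombination genes had 0 of 17 called by edgeR, 1 with an unadjusted p under 0.05, and a median log2 fold change of 0.040, with 11 above 0 and 6 below. Without 1 library the median ran from −0.0027 (control replicate 1) to 0.084 (control replicate 3), and it was 0.0047 without knockout replicate 1. BARD1, the partner that BRCA1 needs to act as a ubiquitin ligase, had 46.5, 47.5 and 50.3 CPM in control and 63.4, 56.1 and 50.8 CPM in knockout libraries. The groups did not overlap, but the lowest knockout and the highest control library nearly met. The log2 fold change of BARD1 was 0.24 ± 0.093 (SE) with an adjusted p of 0.216, and 0.15 without knockout replicate 1, its highest library. BRCA1 itself gave 123, 123 and 131 CPM in control and 126, 129 and 125 CPM in knockout libraries, a log2 fold change of 0.014. The level of BARD1 per kilobase over that of BRCA1 was accordingly 0.709, 0.723 and 0.718 in control and 0.943, 0.812 and 0.759 in knockout libraries. PALB2, which bridges BRCA1 and BRCA2, had a log2 fold change near 0 (95% interval −0.17 to 0.17).

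BRCA2, a tumour suppressor that acts on resected DNA, had 96.0, 101 and 123 CPM in control and 115, 108 and 110.2 CPM in knockout libraries, all 3 within the control range, with a log2 fold change of 0.065 (95% interval −0.14 to 0.27) that was 0.18 without control replicate 3. The promoter of BRCA2 holds a CACGTG E-box, the word that BMAL1 binds together with CLOCK, and so does that of the end joining ligase LIG3. Both are shown because BMAL1 is the targeted factor, as 60 bases of the RefSeq promoter on GRCh38.p14, plus strand, with the E-box in capitals, at chr13:32315433-32315492 for BRCA2 and chr17:34980413-34980472 for LIG3.
BRCA2: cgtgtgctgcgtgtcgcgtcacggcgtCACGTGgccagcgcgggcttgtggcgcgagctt
LIG3: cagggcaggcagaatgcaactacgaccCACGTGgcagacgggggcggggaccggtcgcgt
LIG3 had a log2 fold change of −0.018 (95% interval −0.21 to 0.18). A match to these letters is not evidence of binding, and neither gene was called.

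Among the recombination factors, RAD51D had the smallest p after BARD1. RAD51D had 28.9, 26.6 and 21.7 CPM in control and 28.6, 31.8 and 30.1 CPM in knockout libraries. The groups overlapped, with a log2 fold change of 0.23 (adjusted p = 0.317), and of 0.12 without control replicate 3. The RAD51D paralogue RAD51C had 72.2, 71.0 and 72.8 CPM in control and 98.2, 72.0 and 68.2 CPM in knockout libraries, so only knockout replicate 1 stood above the controls. The log2 fold change of RAD51C was 0.14, and −0.042 without that library. The helicase BLM, which dissolves recombination intermediates, and the DNA translocase RAD54B also had their highest value in knockout replicate 1, at 75.8 and 43.8 CPM. Their log2 fold changes were 0.20 and 0.17, and 0.087 and 0.049 without it. EXO1, a nuclease of long-range resection, had 113, 123 and 136 CPM in control and 137, 122 and 128 CPM in knockout libraries. RBBP8 (CtIP), which starts resection with MRE11, had a log2 fold change of 0.064, which was −0.041 without knockout replicate 1 and 0.15 without control replicate 3. The resolvase subunits MUS81 and EME1, the annealing factor RAD52, the translocase RAD54L, the recombination factors XRCC2 and XRCC3 and the helicase WRN had log2 fold changes between −0.097 and 0.040.

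Of the 13 end joining genes, edgeR called 0 and 1 had an unadjusted p under 0.05. The median log2 fold change was −0.018, and it was −0.081 with the GC trend removed, −0.084 without knockout replicate 1 and 0.0082 without knockout replicate 2. The libraries did not overlap for 5 of 13, with 2 higher and 3 lower in knockout, beside 23.3% of all loci (11.8% higher and 11.5% lower). The summed level of the 13 genes was 3295, 3337 and 3446 CPM in control and 3293, 3108 and 3160 CPM in knockout libraries, a ratio of 0.949 (exact 2-sided permutation p = 0.1, the smallest that 3 against 3 allows). Few genes carried this sum: PRKDC, XRCC5, XRCC6 and PARP1 held 89.0% of it in control, and PRKDC and PARP1 made up 152 of the 172 CPM between the group means. The same sum over all 50 genes had a ratio of 0.981 (exact permutation p = 0.5), over damage signalling of 1.00 (p = 1), over recombination of 1.04 (p = 0.4) and over the Fanconi genes of 1.01 (p = 0.7). PRKDC, which encodes DNA-PKcs, was the most abundant gene of the 50 in counts. It had 820.2, 820.0 and 883 CPM in control and 672, 766 and 801 CPM in knockout libraries, a log2 fold change of −0.17 ± 0.082 (SE) with an adjusted p of 0.315. Every knockout library lay below every control library, and knockout replicate 1 was the lowest; without it the log2 fold change was −0.10.

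The Ku subunits went the other way in that library. XRCC5 (Ku80) had 737, 765 and 782 CPM in control and 851, 653 and 667 CPM in knockout libraries, so knockout replicate 1 lay above all controls and knockout replicates 2 and 3 below. With all libraries the log2 fold change of XRCC5 was −0.072 (adjusted p = 0.772). Without knockout replicate 1 it was −0.21 with an adjusted p of 0.0424, while over all 16 alternatives the adjusted p ran up to 0.996. XRCC6 (Ku70) had 689.6, 689.5 and 722 CPM in control and 786, 680 and 671 CPM in knockout libraries, with knockout replicate 1 above all controls and knockout replicates 2 and 3 below. Its log2 fold change was 0.024 and went to −0.054 without knockout replicate 1. XRCC4, the scaffold of the ligation step, had 15.5, 16.9 and 15.6 CPM in control and 21.5, 14.0 and 12.6 CPM in knockout libraries. Its log2 fold change was 0.0011, and −0.27 without knockout replicate 1. Its interval reached lowest among the 50 genes, from −0.37 to 0.38. LIG4, the ligase that XRCC4 holds, had 28.0, 33.8 and 41.1 CPM in control and 38.9, 31.3 and 30.1 CPM in knockout libraries, all 3 within the control range. The log2 fold change of LIG4 was −0.036, and 0.12 without control replicate 3.

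MAD2L2 (REV7), the shieldin subunit that favours end joining over resection, had 56.6, 52.5 and 43.6 CPM in control and 59.4, 59.8 and 58.7 CPM in knockout libraries. The groups did not overlap, and control replicate 3 was the lowest library. Its log2 fold change was 0.22 ± 0.10 (SE) with an adjusted p of 0.276, and 0.12 without control replicate 3. The end-opening nuclease DCLRE1C (Artemis) had 26.0, 25.9 and 27.7 CPM in control and 28.3, 28.4 and 29.5 CPM in knockout libraries, a log2 fold change of 0.12 (adjusted p = 0.526).

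In the alternative end joining route, PARP1, the poly(ADP-ribose) polymerase that detects breaks, had 692, 695 and 677 CPM in control and 601, 643 and 648 CPM in knockout libraries. All 3 knockout libraries were lower, with a log2 fold change of −0.13 (adjusted p = 0.392). Its relative PARP2 had 57.4, 57.9 and 62.8 CPM in control and 56.7, 56.7 and 53.3 CPM in knockout libraries, also without overlap. The log2 fold change of PARP2 was −0.095 (adjusted p = 0.586), and −0.050 without control replicate 3. POLQ, the polymerase that joins ends at microhomologies, had 96.4, 99.8 and 113 CPM in control and 103, 102 and 109 CPM in knockout libraries, all 3 within the control range. The accessory factors NHEJ1 (XLF) and PAXX had log2 fold changes of −0.12 and 0.026. Without 1 library NHEJ1 ran from −0.21 (control replicate 1) to −0.0049 (control replicate 3) and PAXX from −0.037 to 0.079.

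Of the 6 Fanconi genes, edgeR called 0, none had an unadjusted p under 0.05, and the median log2 fold change was −0.0098, from −0.032 without knockout replicate 1 to 0.029 without control replicate 3. FANCD2, which is clamped on DNA once ubiquitylated, had 81.9, 86.5 and 85.4 CPM in control and 73.2, 74.5 and 79.4 CPM in knockout libraries. Each knockout library was below each control library, with a log2 fold change of −0.16 ± 0.074 (SE) and an adjusted p of 0.299. FANCI, its partner in the clamp, had 264, 274 and 278 CPM in control and 304, 270.0 and 260 CPM in knockout libraries. The level of FANCD2 per kilobase over that of FANCI was 0.468, 0.475 and 0.462 in control and 0.363, 0.415 and 0.460 in knockout libraries, so that replicate 3 of both groups nearly met and knockout replicate 1 was the lowest. Without knockout replicate 1 the log2 fold change of FANCD2 went from −0.16 to −0.14 and that of FANCI from 0.031 to −0.039. The helicase BRIP1 (FANCJ) had 70.1, 74.0 and 83.1 CPM in control and 88.8, 80.7 and 81.5 CPM in knockout libraries, a log2 fold change of 0.14 (adjusted p = 0.426) with overlapping groups, and of 0.22 without control replicate 3 and 0.090 without control replicate 1. USP1, which removes ubiquitin from the clamp, and the core complex genes FANCA and FANCM had log2 fold changes of 0.021, −0.040 and −0.061.

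**Figure D2:**
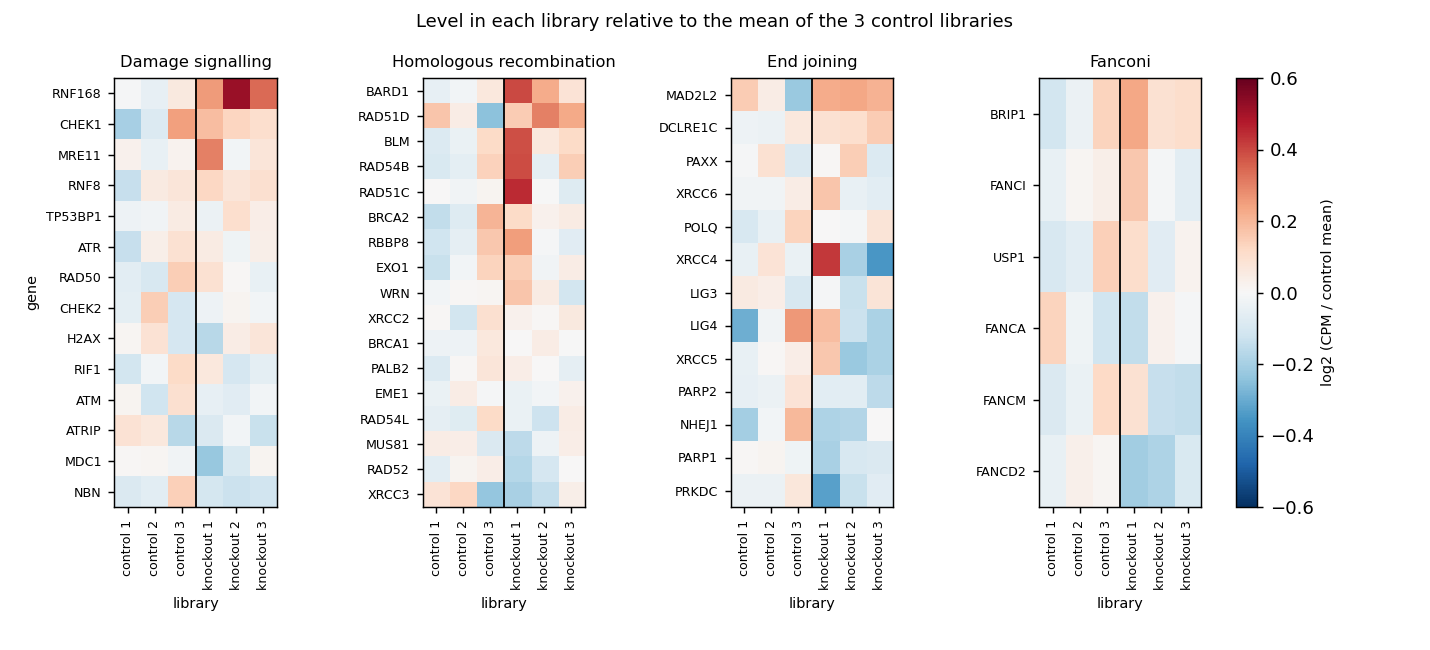
Level of each gene in each of the 6 libraries as log2 of its CPM over the mean of the 3 control libraries, with genes as rows in 4 role panels and red for higher and blue for lower. RNF168 is higher in all 3 knockout libraries, whereas XRCC4, RAD51C, BLM and RAD54B have their deepest red in knockout replicate 1.

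Levels of different genes were compared per kilobase of exon. The Ku genes led, with XRCC6 at 218 and XRCC5 at 136 CPM per kilobase averaged over the 6 libraries, followed by H2AX at 59.3, USP1 at 53.3, PARP1 at 35.8 and EXO1 at 30.6. At the other end were DCLRE1C at 1.81, FANCM at 2.22, ATM at 2.41 and RAD51D at 2.48 CPM per kilobase. These levels depend on the exon length taken: with the longest annotated transcript in place of all exons, XRCC6 and XRCC5 still ranked 1 and 2 and PARP1 moved from 5 to 3. RAD51C moved from 38 to 11, ATR from 44 to 27, ATM from 48 to 38 and FANCM from 49 to 42, and the lowest became RAD51D, NHEJ1, DCLRE1C and RNF8. Within the checkpoint pairs ATR exceeded ATM in level per kilobase in all 6 libraries, by ratios of 1.26 to 1.56 over all exons and of 1.41 to 1.75 with the longest transcript. The ratio of CHEK1 to CHEK2 ran from 1.20 to 1.78 over all exons, but from 0.924 to 1.38 with the longest transcript, under 1 in control replicates 1 and 2. Of the 50 genes 34 share an exon position with another annotated gene, and since strandedness is not given in the sources used here, reads of such pairs cannot be told apart.

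**Figure D3:**
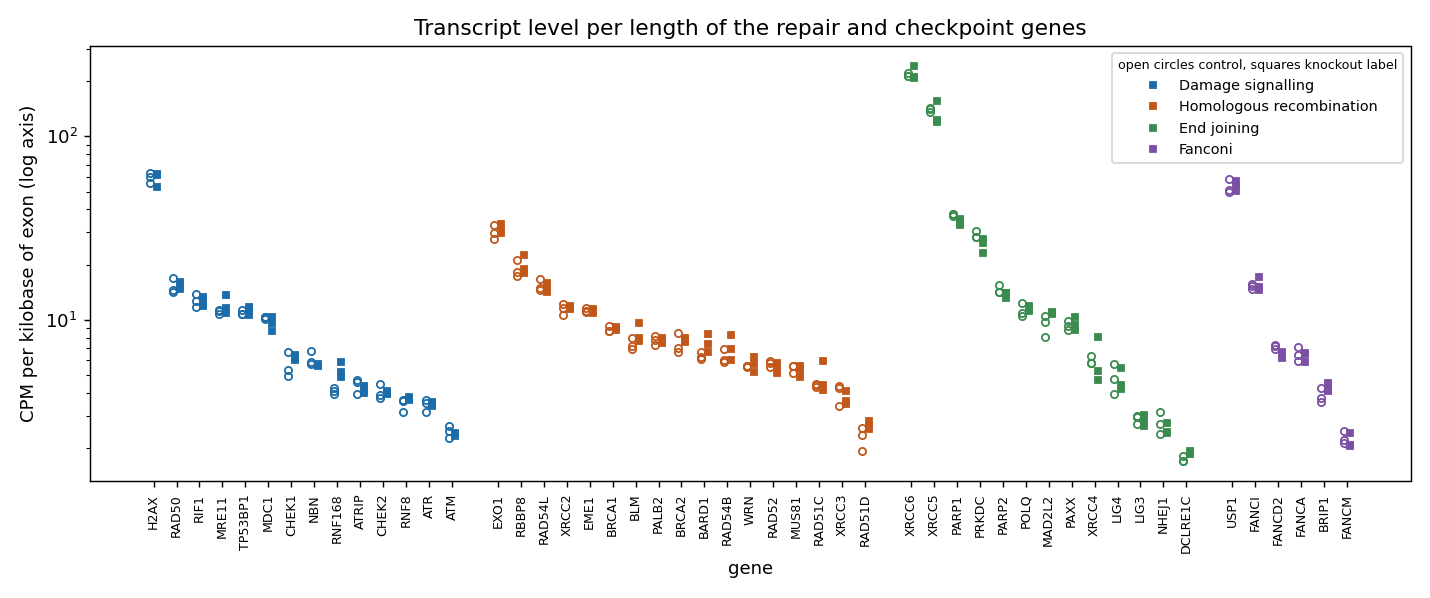
Level of each gene in CPM per kilobase of exon on a log axis, grouped by role, with open circles for the 3 control libraries and squares for the 3 libraries labelled BMAL1 knockout. Levels run from 218 for XRCC6 down to 1.81 for DCLRE1C.

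A list of 81 other genes of the same pathways was compared with them. All 81 were tested, edgeR called 2 higher and 1 lower (beside 1.08% and 1.43% of all loci), and the median log2 fold change was 0.041. PPM1D, a phosphatase that switches off ATM signalling and is itself induced by p53, had 28.7, 26.1 and 31.1 CPM in control and 43.6, 43.1 and 39.7 CPM in knockout libraries. Its log2 fold change was 0.56 (adjusted p = 0.00953), and 0.50 without control replicate 2 (adjusted p = 0.0700). DNA2, a resection nuclease, had 52.4, 53.9 and 59.2 CPM in control and 78.2, 69.0 and 69.4 CPM in knockout libraries (log2 fold change 0.39, adjusted p = 0.0362). The neighbours of DNA2 on chromosome 10 had a median log2 fold change of 0.28, and their part in this value was not tested. RTEL1, a helicase that unwinds recombination intermediates, had 101, 95.9 and 90.8 CPM in control and 66.5, 65.3 and 79.8 CPM in knockout libraries (log2 fold change −0.44, adjusted p = 0.0292); it shares exons with a readthrough transcript. The calls of DNA2 and RTEL1 were lost in several fits, although the log2 fold changes stayed about as large. Leaving out control replicate 1, 2 or 3 or knockout replicate 2 gave adjusted p of 0.153, 0.174, 0.0635 and 0.0829 for DNA2 and of 0.119, 0.125, 0.0769 and 0.123 for RTEL1. The log2 fold changes were then 0.35, 0.37, 0.45 and 0.42 for DNA2 and −0.41, −0.44, −0.48 and −0.39 for RTEL1. DNA2 also had an adjusted p of 0.0598 without knockout replicate 3 and of 0.0510 with libraries thinned to the smallest total.

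Targets of p53, the transcription factor that the checkpoint kinases activate, were counted in the same way. All 20 of the p53 targets listed had a log2 fold change above 0 (median 0.38), beside 7762 of the 14860 loci tested. Of the 20, edgeR called 8 higher, beside 1.08% of all loci. The 4 with the smallest p were BTG2 (log2 fold change 0.85, adjusted p = 0.00233), TP53I3 (0.74, adjusted p = 0.00663), MDM2 (0.48, adjusted p = 0.00745) and FAS (0.61, adjusted p = 0.00986). The number of p53 targets called fell to 5, 2 and 4 without control replicates 1, 2 and 3 and to 5 without knockout replicate 2, where 19 of the 20 stayed above 0. It was 6 without knockout replicate 3 and 7 with limma-voom. The number rose to 10 without knockout replicate 1, to 10 with DESeq2 and to 12 with the GC trend removed. Without control replicate 2 MDM2 had a log2 fold change of 0.46 (adjusted p = 0.0652) and FAS of 0.62 (adjusted p = 0.0532). FAS had a log2 fold change of 0.56 (adjusted p = 0.0671) without control replicate 3. The 25 replication genes had a median of 0.038. A list of 20 mitosis genes had 0 called by edgeR and a median of −0.0076. At an unadjusted p under 0.05, 1 was higher and 2 were lower (beside 9.08% and 7.78% of all loci). Whether p53 targets and break repair genes differ was not tested, and the medians are given as descriptions.

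**Figure D4:**
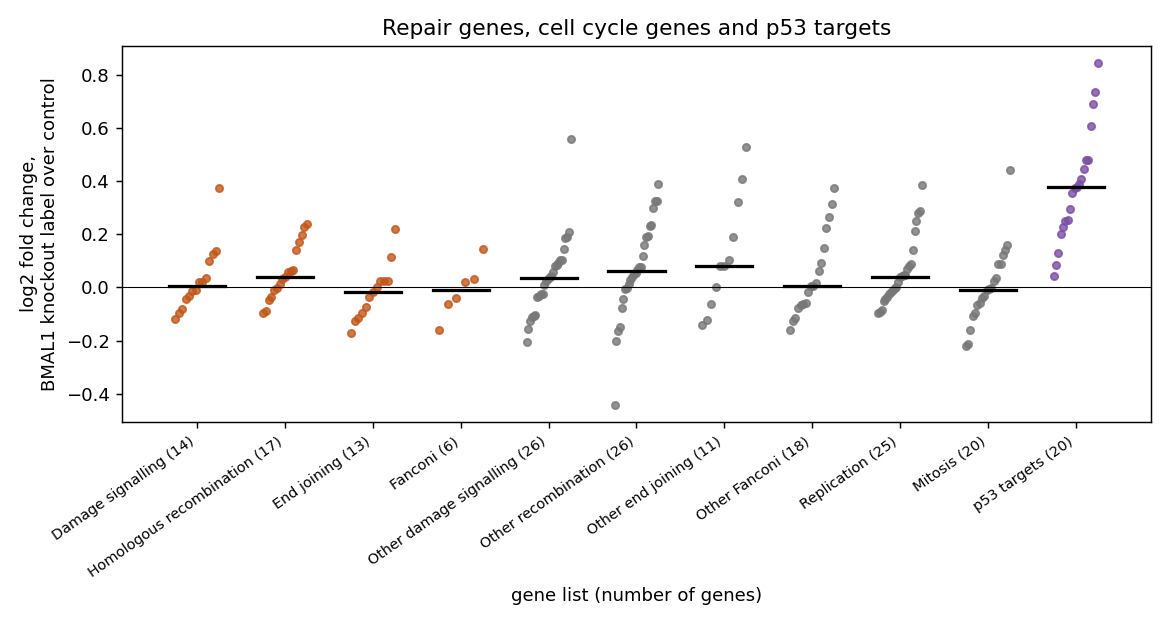
Log2 fold change of each gene, as points sorted within its list, in the libraries labelled BMAL1 knockout over control, with a black line at each list's median. The 4 lists of break repair genes (orange) have medians between −0.018 and 0.040, while all 20 p53 targets (purple) lie above 0.

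Promoters of 44 of the 50 genes were found in the RefSeq table, which covers 250 bases before to 50 bases after the start. The E-box CACGTG was present in 3 of 44, or 6.82%, beside 7.43% of 27305 promoters, the third gene being RAD50. Words bound by E2F factors (TTTCCCGC, TTTGGCGC or TTTCGCGC, either strand) were present in 4 of 44, or 9.09%, beside 2.79% of all promoters, in EXO1, FANCD2, XRCC2 and XRCC6. CHR words of cell cycle genes (TTTGAA or TTTAAA, either strand) were present in 9 of 44, or 20.5%, beside 24.3% of all promoters. These shares are descriptions of the letters and no test was made of them. FANCI, NBN, PRKDC, RAD54B, WRN and XRCC5 were not matched.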

How the data were processed

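The deposited table holds raw counts per gene locus, made by the authors from paired-end reads of total RNA; the submitters' processing notes name fastp 0.20.1, HISAT2 2.0.4 and genome build hg38. The study's methods name HISAT2 for counting reads with a unique position. The annotation and strandedness are not given in the sources used here. Loci were filtered by edgeR's default, scaled by TMM and tested in R 4.3.3 with edgeR 4.0.16 (quasi-likelihood, robust, 2-sided, Benjamini-Hochberg over 14860 loci), 3 control against 3 libraries labelled BMAL1 knockout. limma 3.58.1 and DESeq2 1.42.0 served as alternatives, beside other scalings, filters, a GC correction, thinning, a replicate block and leaving out each library. The test was first tried on simulated data. Of 22354 loci, 20018 matched GENCODE v44 by symbol for exon length, GC content and position, and 2310 loci carry only an assembly name. CPM is the count scaled by TMM library size; neighbours are up to 20 tested loci on each side.

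Genes described singly were 17 core genes, any called, the 2 of smallest p and the highest and lowest per kilobase in each role, and at most 4 called genes of each comparison list. RNF8, MDC1, RAD51C, XRCC4 and other members were added after their values were seen, as were KRT18, PTPRC and the other markers given with a fold change. The members and all lists were chosen with earlier results of these data known. Intervals and floors cover the spread between these libraries or counting error only. Single values of some listed genes are not reported here.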

Additional observations from a re-analysis of the deposited data

How the results depend on the processing

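Over 16 alternatives the median log2 fold change of the 50 genes moved by less than the spread between libraries, and it ran from −0.022 to 0.049. The fit without robust estimation was chosen after seeing the data. Members called went from 0 higher and 0 lower to 1 higher, RNF168, with DESeq2 and with the GC trend removed, and over the fits without a library to between 0 and 1 higher and between 0 and 1 lower, RNF168 and XRCC5, both without knockout replicate 1. Over all loci, 161 were called higher and 212 lower, but 256 and 379 by DESeq2, 498 and 610 with the GC trend removed, 94 and 48 by a fold change over 2 with unadjusted p under 0.01, and 46 to 293 higher and 67 to 340 lower without 1 library. Replicate numbers did not pair the samples (correlations of −0.0896, −0.0517 and −0.0047 between same-numbered libraries); with a replicate block 132 were called higher and 145 lower, and 0 members, and adjusted p was 0.0825 for DNA2 and 0.0512 for RTEL1. BMAL1 kept its direction, from 0.50 to 0.70 without 1 library. Signs turned for the genes listed next. Among them RAD51C had the largest log2 fold change with all libraries, 0.14. With library size only, CHEK2 became 0.019 and H2AX 0.016. With the GC trend removed, ATR became −0.023, CHEK2 0.0085, BRCA1 −0.0093, POLQ −0.011, FANCI −0.0048 and USP1 −0.028. Without 1 library, ATM ran from −0.10 to 0.0092, ATR from −0.045 to 0.071, CHEK2 from −0.055 to 0.070, H2AX from −0.059 to 0.057, BRCA1 from −0.0027 to 0.049, BRCA2 from −0.0055 to 0.18, XRCC6 from −0.054 to 0.066, LIG4 from −0.16 to 0.12, POLQ from −0.024 to 0.098, FANCI from −0.039 to 0.077, USP1 from −0.026 to 0.10, FANCM from −0.15 to 0.0067, EXO1 from −0.0038 to 0.14, RIF1 from −0.084 to 0.034, RAD50 from −0.026 to 0.10, RBBP8 from −0.041 to 0.15, PALB2 from −0.043 to 0.037, RAD51C from −0.042 to 0.24, RAD54L from −0.081 to 0.028, XRCC2 from −0.022 to 0.084, WRN from −0.031 to 0.11, MUS81 from −0.094 to 0.0040, EME1 from −0.029 to 0.014, XRCC4 from −0.27 to 0.15, PAXX from −0.037 to 0.079, LIG3 from −0.070 to 0.035 and FANCA from −0.095 to 0.031. None of these was called in any fit, and the cause was not tested. GC content was known for 91.4% of loci tested and all 50 members. Knockout libraries 1 and 3 were deeper than the rest; thinned to the smallest total, 148 loci were called higher and 195 lower. With 3 libraries a group, the standard error of the 50 genes, 0.088 on the log2 scale in the median, limits what could be seen.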

Other observations

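Other repair pathways were counted with the same test. Of 22 nucleotide excision repair genes, edgeR called 0, with 1 higher and 4 lower at an unadjusted p under 0.05 (beside 9.08% and 7.78% of all loci), and the median log2 fold change was −0.075. Their summed level was 1622, 1643 and 1669 CPM in control and 1572, 1502 and 1544 CPM in the libraries labelled BMAL1 knockout, with DDB1 the most abundant. Of 17 base excision repair genes, edgeR called 0, with 4 of 17 lower at an unadjusted p under 0.05 (7.78% of all loci), and the median was −0.0052. These summed to 771, 773 and 775 CPM in control and 726, 736 and 736 CPM in knockout libraries, so both sums were lower in all 3 knockout libraries (exact 2-sided permutation p = 0.1, the smallest possible). The abasic site nuclease APEX1 had 152, 150 and 144 CPM in control and 133, 129 and 129 CPM in knockout libraries, and was picked after its values were seen. Of 7 mismatch repair genes, edgeR called 0, 1 had an unadjusted p under 0.05, and the median was 0.10. Their summed level was 581, 601 and 669 CPM in control and 738, 641 and 646 CPM in knockout libraries, a ratio of 1.09 (exact 2-sided permutation p = 0.3).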
